A study of Mus musculus with 12 samples.

Results

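Fetal membranes of mice lacking both biglycan (Bgn) and decorin (Dcn) at embryonic day 18 (E18) were compared with the libraries labelled E18 wild-type (WT). Each group held 3 libraries, so the comparison used 6 of the 12 libraries of the series, and every gene with enough counts was taken: 18153 of 48795 annotated genes were tested, none chosen by its values. The double-knockout (DKO) libraries are labelled as strain C3H and C57BL/6, and the WT libraries as C3H alone, so the deletion and the strain cannot be told apart. The other 6 libraries, E12 DKO and E12 WT with 3 each and the same strain labels as their genotypes, entered the fit to share the estimate of spread and are given beside the E18 values as a reference for stage. No label says whether the libraries of a group came from separate animals or litters, so p-values measure the spread between these samples, which may be technical. The RNA came from whole membranes, in which fewer cells of a type and less RNA per cell cannot be told apart.

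The fetal membranes of the mouse are mainly the visceral yolk sac, whose endoderm takes up and exports nutrients, and the amnion, a thin epithelium on a collagen-rich mesenchyme. Biglycan and decorin are small proteoglycans with leucine-rich repeats. They bind to collagen fibrils and to growth factors of the TGF-beta family. The first red cells of the embryo arise in the yolk sac and carry embryonic globins, which give way to adult globins as gestation goes on. The share of embryonic chains among globin counts is therefore read here beside the stage labels.

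This share put the stage of the libraries labelled E18 WT in doubt. Embryonic beta-globins made up 81.3%, 87.7% and 74.7% of beta-globin counts in them (libraries 1, 2 and 3, the order used for all values below), against 2.67%, 1.33% and 1.73% in the E18 DKO libraries. The E12 DKO libraries held 82.2%, 84.5% and 85%, so the labelled E18 WT libraries lay near the E12 range and the E18 DKO libraries far below it. The E12 WT libraries held 14.8%, 95% and 96.9%, with library 1 apart from the other two. On the first principal component, which carried 65.3% of the variance of the 2000 most variable genes, the E18 DKO libraries scored 105.2 to 125.1 and the labelled E18 WT libraries -54.64 to -38.25, beside -52.5 to -47.67 for E12 DKO. The E12 WT libraries scored 36.2, -49.13 and -42.9, with library 1 again apart. The second component, with 10.7% of the variance, had the labelled E18 WT libraries at its upper end. Genotype, strain and a possible difference of stage therefore cannot be told apart in any comparison below, and E12 values are printed beside the main ones for that reason. Total counts ran from 19967593 to 33065424 per library.

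**Figure D1:**
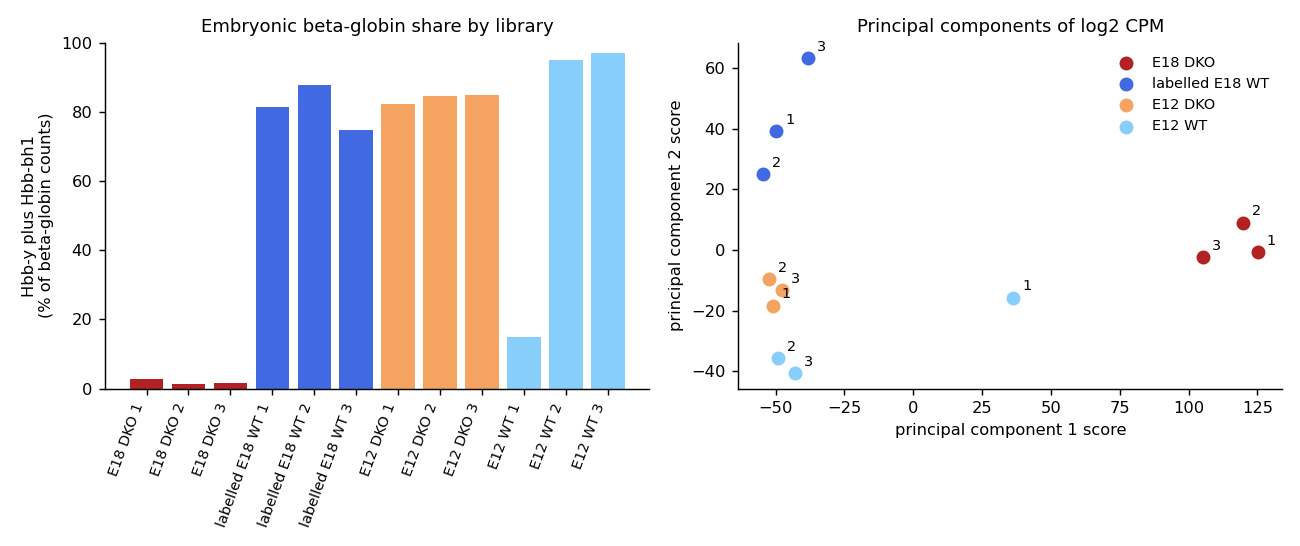
Left, embryonic chains as a percentage of beta-globin counts in each of the 12 libraries (bars start at 0). Right, the libraries on the first 2 principal components. On the first, the 3 labelled E18 WT libraries sit between -54.64 and -38.25, beside the E12 libraries other than E12 WT library 1 (36.2). The 3 E18 DKO libraries sit between 105.2 and 125.1.

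The deleted genes were checked first. CPM below are counts per 1e6 of a library size adjusted by TMM scaling. Bgn, on the X chromosome (GRCm38 chrX:73483602-73495933), read 25.1, 23.9 and 24.6 CPM in the E18 DKO libraries. It read 239, 223 and 381 CPM in those labelled E18 WT, a log2 fold change of -3.52 ± 0.34, adjusted p = 9.7e-05. Dcn (chr10:97479500-97518162) read 4.67, 4.78 and 6.21 CPM against 198, 353 and 978 CPM, -6.61 ± 0.69, adjusted p = 0.000126, and -5.72 without labelled E18 WT library 3. For both genes the groups did not overlap, and the E12 DKO libraries were also low, at 16.4, 16.2 and 14.3 CPM for Bgn and 5.92, 8.44 and 6.95 CPM for Dcn. The labels therefore held for genotype in all 6 DKO libraries, whatever the stage of the labelled WT libraries. The log2 fold changes here and below are E18 DKO over labelled E18 WT (n = 3 per group). Adjusted p-values are from the quasi-likelihood test of edgeR, adjusted by Benjamini-Hochberg over the 18153 genes. The value after ± is an approximate standard error, worked back from the fold change and the F statistic of that test. It was not fitted directly, and it rests on a spread estimated over all 12 libraries.

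At an adjusted p under 0.05, 7678 genes (42.3% of those tested) differed, 3725 (20.5%) higher in E18 DKO and 3953 (21.8%) lower. With library size alone as the scaling, the calls were 2382 higher and 6015 lower. Of the 7678, 2818 (15.5% of those tested) differed by more than 2-fold in a test against that threshold. CPM values of the groups did not overlap for 10322 genes (56.9%), called or not. The median absolute log2 fold change of the called genes was 1.58, and 713 higher and 1017 lower genes exceeded a log2 fold change of 3. Scaled CPM of the called genes summed to 56.0%, 55.9% and 58.4% of 1e6 in the E18 DKO libraries. In the labelled E18 WT libraries they summed to 36.1%, 35.8% and 36.3% of 1e6. These are not shares of a library, and part of the gap comes from the scaling. Scaled CPM of all tested genes summed to 1.097e+06, 1.113e+06 and 1.217e+06 in E18 DKO and 8.987e+05, 8.846e+05 and 8.77e+05 in labelled E18 WT. In each of 6 fits that left out 1 library, 4992 of the called genes (65.0%) were called again. Leaving out E12 WT library 1 and labelled E18 WT library 3, which stand apart in their groups, gave 9159 calls. Counts of this size are the background for every list below: a list with a called share near 42.3% is at the background.

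Most of the called genes separated the E18 DKO libraries from everything else. The 3 E12 DKO libraries, which carry the same deletion and strain labels as the E18 DKO libraries, lay nearer to the labelled E18 WT mean than to the E18 DKO mean for 84.9% of the called genes (3338 of the higher and 3180 of the lower). They lay on the E18 DKO side for 3.65% and were divided for 11.5%. In direct tests of the same fit, which share libraries with the main comparison, 34 genes (0.187%) differed between E12 DKO and labelled E18 WT, and 64 genes (0.353%) between E12 DKO and E12 WT. A gene not called in these tests was not shown to be equal. The coefficient of variation between libraries was 0.549 in E12 WT, 0.337 in labelled E18 WT and 0.177 in E12 DKO, and the spread was estimated over all groups together. Among the called genes, 59 (0.768%) separated all 6 DKO from all 6 WT libraries without overlap. Genes that were not called were left out of this count.

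**Figure D2:**
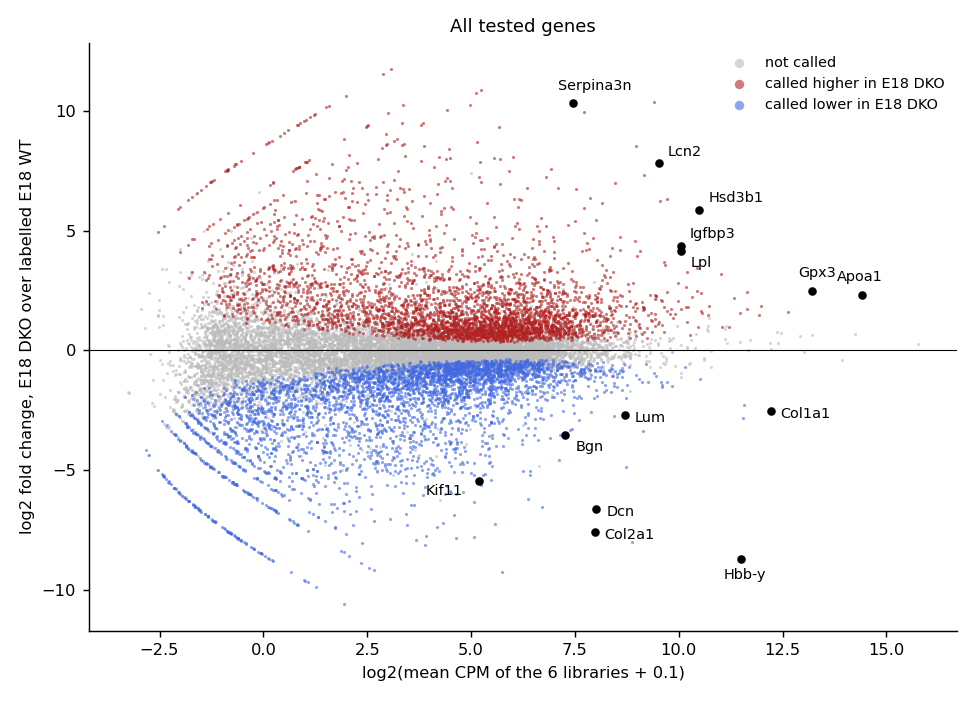
Each point is 1 of the 18153 tested genes, with its log2 mean CPM over the 6 libraries on the horizontal axis and the log2 fold change of E18 DKO over labelled E18 WT on the vertical axis; colours mark the 3725 genes called higher and the 3953 called lower. Labelled genes are described in the text, among them Bgn at -3.52 and Dcn at -6.61.

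By amount of RNA, the largest gains in E18 DKO included Apoa1, Gpx3, Fth1, Cdkn1c and Neat1. Apoa1, the main apolipoprotein of high-density lipoprotein and an abundant yolk sac product, read 26755, 28217 and 54002 CPM in the E18 DKO libraries, 8882, 7138 and 6126 CPM in the labelled E18 WT libraries and 7708, 7229 and 6821 CPM in E12 DKO. Its log2 fold change was 2.30 ± 0.45, adjusted p = 0.00227. The E18 DKO libraries were all higher than the labelled E18 WT and E12 DKO libraries, and E12 WT library 1 reached the E18 DKO range (28283, 10554 and 13382 CPM in E12 WT). Gpx3, the secreted glutathione peroxidase, read 16856, 13241 and 18389.9 CPM against 3117, 3269 and 2382 CPM (2.47 ± 0.37, adjusted p = 0.000627), with no overlap. Fth1, the ferritin heavy chain that stores iron, read 6128, 4930 and 5327 CPM against 1188, 1009 and 778 CPM (2.46 ± 0.25, adjusted p = 0.000123). Cdkn1c, an imprinted inhibitor of cell division, read 4822, 3906 and 3842 CPM against 913, 1027 and 822 CPM (2.19 ± 0.25, adjusted p = 0.000154), and the long non-coding RNA Neat1, which scaffolds nuclear paraspeckles, 2543, 4423 and 4258 CPM against 407, 354 and 474 CPM (3.18 ± 0.70, adjusted p = 0.0045). Each of these genes stood at the labelled E18 WT level in the E12 DKO libraries, for example 1056, 1188 and 1182 CPM for Fth1 and 1043, 867 and 952 CPM for Cdkn1c, so the doubt about the stage of the labelled WT libraries applies to each of them.

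The largest losses by amount included Col1a1, Col3a1, Scd2, Hsp90b1 and Postn. Col1a1, the main chain of type I collagen, read 1356, 892 and 1979.8 CPM in E18 DKO and 6059, 6909 and 11553 CPM in labelled E18 WT (-2.54 ± 0.44, adjusted p = 0.00129), with E12 DKO at 5255, 6737 and 6602 CPM. Col3a1, of type III collagen, read 548, 510.2 and 1135 CPM against 3111, 4349.9 and 8169 CPM (-2.83 ± 0.44, adjusted p = 0.000677). For these chains labelled E18 WT library 3 was the highest of its group and E18 DKO library 3 the highest of its own, and the groups did not overlap. Scd2, a fatty acid desaturase, read 867, 919.8 and 892 CPM against 2289.8, 1903 and 1843 CPM (-1.17 ± 0.27, adjusted p = 0.00548), and Hsp90b1, a chaperone of the endoplasmic reticulum, 393, 459 and 392 CPM against 977, 1005 and 1400.4 CPM (-1.44 ± 0.24, adjusted p = 0.00108). Postn, periostin of the matrix, read 68.8, 66.1 and 169 CPM against 457, 739 and 1899 CPM (-3.35 ± 0.63, adjusted p = 0.00191, and -2.57 without labelled E18 WT library 3).

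Among genes with at least 10 counts in each of the 6 libraries, the largest rises included Sftpd, Nupr1, Tph1 and Cxcr2. Sftpd, a secreted collectin of surfactant, read 1135, 1179 and 679 CPM in E18 DKO and 2.04, 1.52 and 4.6 CPM in labelled E18 WT (8.53 ± 1.72, adjusted p = 0.00282, and 9.13 without labelled E18 WT library 3). Nupr1, a stress-induced chromatin protein, read 1488, 832 and 1073 CPM against 3.09, 4.72 and 13.5 CPM (7.32 ± 1.25, adjusted p = 0.00115, and 8.17 without labelled E18 WT library 3). Tph1, which makes serotonin, read 755, 591 and 753 CPM against 4.52, 8.35 and 3.78 CPM (6.97 ± 1.58, adjusted p = 0.00521). Cxcr2, a chemokine receptor, read 219, 274 and 174 CPM against 1.06, 0.82 and 2.63 CPM (7.22 ± 1.43, adjusted p = 0.00254, and 7.88 without labelled E18 WT library 3). None of these overlapped between the groups, and the E12 DKO libraries were at the labelled E18 WT level, with Tph1 at 5.32, 6.81 and 5.15 CPM. E12 WT library 1 stood apart from its group for them too: E12 WT read 778, 15.4 and 4.77 CPM for Tph1, 229, 3.78 and 2.35 CPM for Sftpd and 89.9, 5.6 and 1 CPM for Cxcr2. Among the largest falls were Hbb-y, an embryonic beta-globin, at 14.2, 13.3 and 14.3 CPM against 5858, 4716 and 6846 CPM (-8.70 ± 1.00, adjusted p = 0.000163), and Col2a1, the cartilage collagen, at 2.36, 3.33 and 2.23 CPM against 742, 293 and 484 CPM (-7.57 ± 0.72, adjusted p = 9.19e-05). Gsta3, a glutathione transferase, read 0.715, 0.938 and 0.599 CPM against 59.3, 43.9 and 29.3 CPM (-5.86 ± 0.61, adjusted p = 0.000124).

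**Figure D3:**
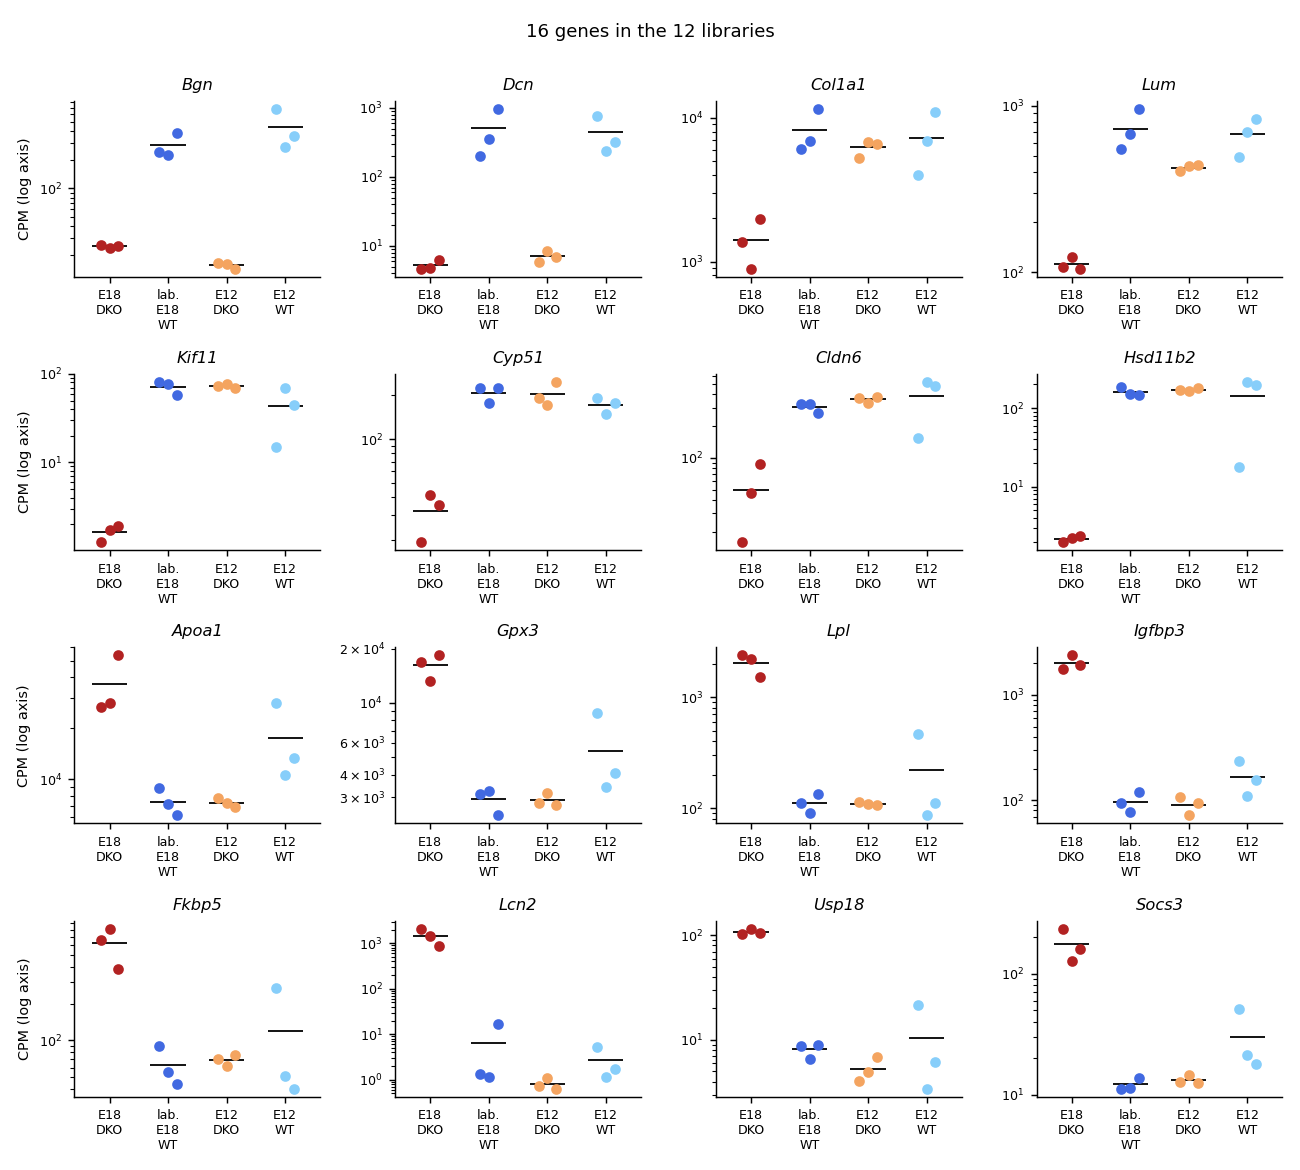
CPM of 16 named genes in the 12 libraries (log axis), by group, with a line at each group mean. For Kif11, Hsd11b2, Fkbp5 and most of the others the E12 DKO points lie with the labelled E18 WT points; for Bgn, Dcn and Lum all DKO points lie below all WT points.

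Genes were then grouped in 67 lists of pathways, families and cell type markers and 1 list of 354 tested transcription factors. Over all tested genes the median log2 fold change was -0.04; scaling by library size alone moved it by -0.36, so list medians within that distance of 0 turn with the scaling. Where removing 1 library moved a count by more than 1.5 times, the count without it is given.

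**Figure D4:**
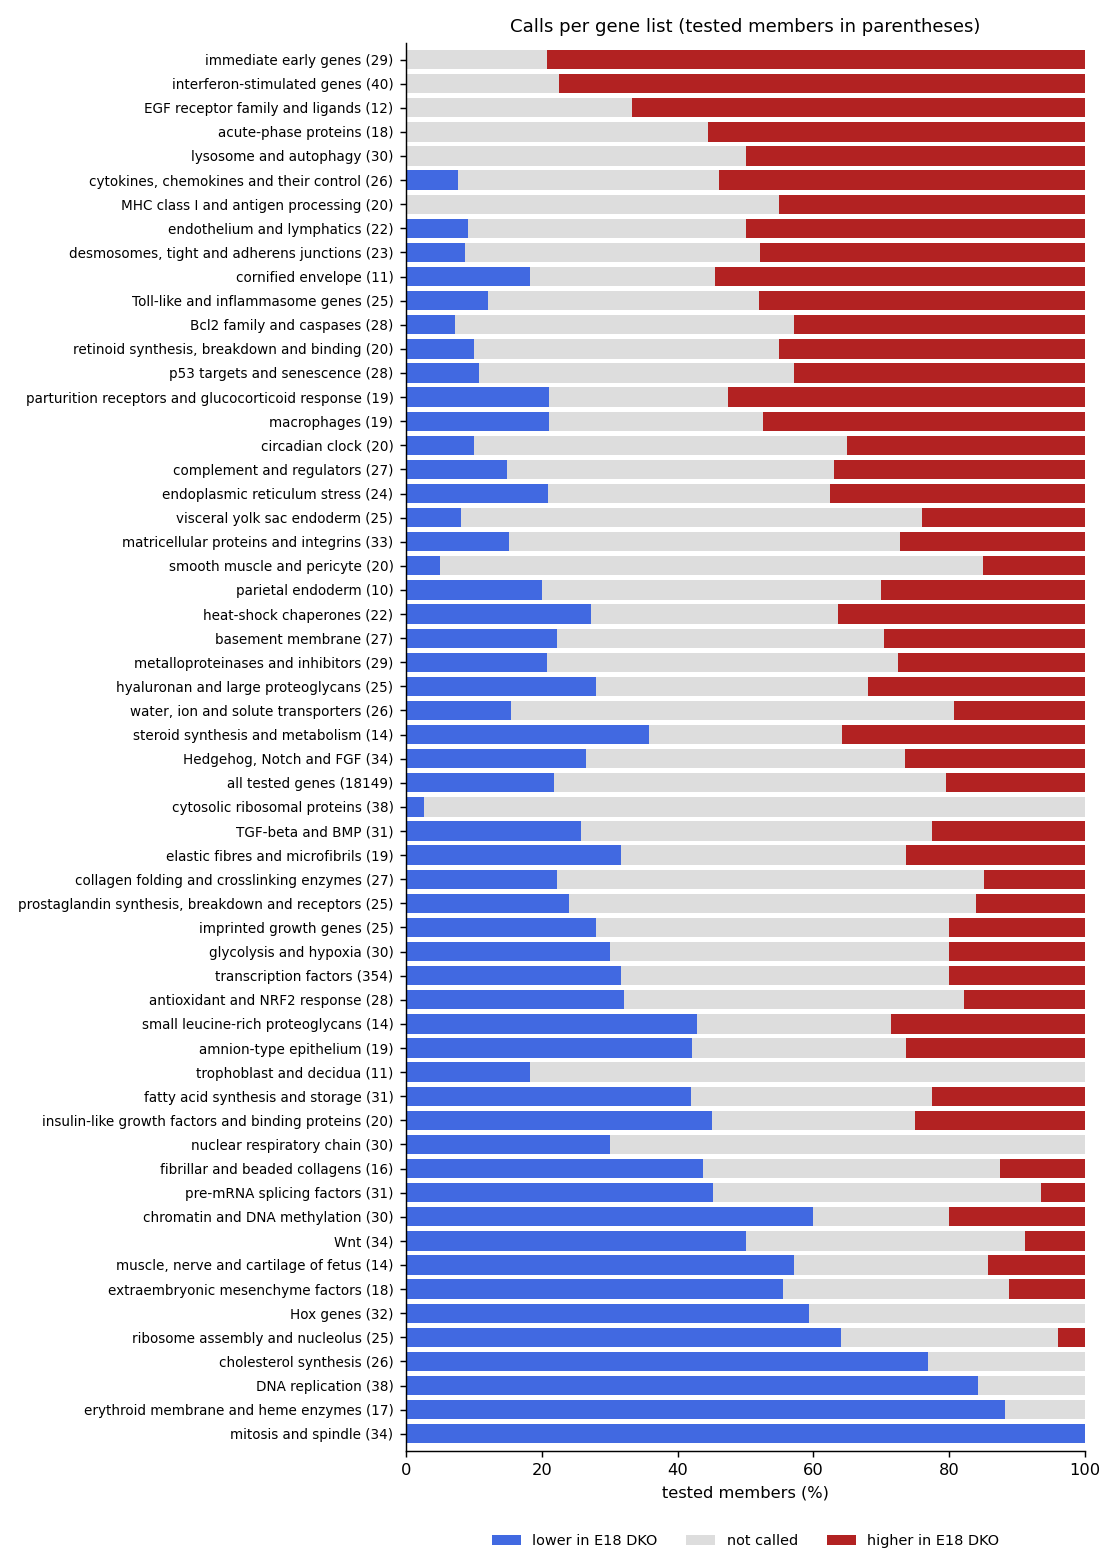
Share of tested members called higher, called lower or not called in each list with at least 10 tested members, with all tested genes for comparison (20.5% higher, 21.8% lower). Mitosis and DNA replication have no member called higher and interferon-stimulated and immediate early genes none called lower.

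Red cell genes fell together. All 3 embryonic globins tested were lower, and 15 of 17 genes of the red cell membrane and heme synthesis, with none higher and a list median of -3.52. Slc4a1, the anion exchanger of the red cell membrane, read 1.04, 1.41 and 2.12 CPM in E18 DKO against 59.8, 112 and 49.7 CPM in labelled E18 WT (-5.60 ± 0.81, adjusted p = 0.000524). Of 4 adult globins 2 were called, Hba-a1 and Hbb-bt, and neither call was kept in all fits that left out 1 library: without any 1 of the 6 libraries Hbb-bt was not called, and Hba-a1 was not called without E18 DKO library 1 or labelled E18 WT library 3. All globin genes together made up 0.0932%, 0.148% and 0.156% of counts in E18 DKO and 1.12%, 0.921% and 1.46% in labelled E18 WT. The E12 DKO libraries were on the labelled E18 WT side for 12 of the 15 membrane and heme genes, Slc4a1 among them at 18.5, 76.5 and 53 CPM.

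Markers of the yolk sac endoderm were divided. Of 25 tested, 6 were higher and 2 lower (5 and 3 with library size alone), with a median of 0.03, and most, such as Afp, Ttr, Apob and Cubn, were not called. Spink1, a secreted protease inhibitor, read 873, 589.5 and 763 CPM in E18 DKO and 235, 194 and 212 CPM in labelled E18 WT (1.80 ± 0.23, adjusted p = 0.000252), without overlap and with E12 DKO at 150.2, 162 and 174 CPM. Trf, transferrin, which carries iron, read 2350, 1782 and 3909.6 CPM against 863, 602 and 751 CPM (1.86 ± 0.36, adjusted p = 0.00218). The count of lower members was 6 without E18 DKO library 3 and 0 without E18 DKO library 1 or 2 or labelled E18 WT library 1 or 2. Summed CPM of the 25 members were 9.194e+04, 1.277e+05 and 1.797e+05 in E18 DKO and 9.113e+04, 8.744e+04 and 5.934e+04 in labelled E18 WT, so markers of this endoderm were abundant in both groups. Whether the groups had the same tissue make-up was not tested. Col4a1 and Col4a2, the collagen IV chains made in bulk by the parietal endoderm and by vessels, rose to 4189, 5083 and 3591 CPM and 2211, 2713 and 1897 CPM from 1466, 1838 and 986 CPM and 737, 866 and 552 CPM, with log2 fold changes of 1.58 ± 0.41, adjusted p = 0.01 and 1.66 ± 0.43, adjusted p = 0.00991. E12 DKO read 1747, 1753 and 2034 CPM for Col4a1, so this difference too is read against libraries of doubtful stage.

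Epithelial keratins changed in both directions. The simple-epithelium keratins Krt7 and Krt18 rose, Krt7 from 499, 375 and 303 to 1835, 1669.8 and 1371 CPM (2.05 ± 0.26, adjusted p = 0.000279) and Krt18 from 1034, 735 and 878 to 2883, 2060.4 and 2355 CPM (1.46 ± 0.23, adjusted p = 0.000845). In the list of 19 amnion-type markers 5 were higher and 8 lower, and the lower ones included the transcription factors Tfap2a (-2.37), Isl1 (-6.84, and -3.75 without labelled E18 WT library 1) and Grhl3. Grhl3, which drives surface ectoderm, read 0.055, 0.213 and 0.0545 CPM against 4.6, 7.53 and 22.8 CPM (-6.61 ± 1.16, adjusted p = 0.0013, and -7.61 without E18 DKO library 2, and -5.68 without labelled E18 WT library 3). Its E18 DKO values rest on very few reads, so the size of this fall is uncertain. Krt6a and Krt17, keratins of stressed or stratified epithelium, rose from 0.565, 0.557 and 0.903 to 148, 142 and 69.8 CPM (7.47 ± 1.73, adjusted p = 0.00573) and from 1.17, 0.322 and 0.451 to 49.4, 28.1 and 41.4 CPM (5.94 ± 1.28, adjusted p = 0.00391, and 6.67 without labelled E18 WT library 1). Krt5, the basal-layer keratin that usually pairs with Krt14, fell: 0.879, 0.853 and 0.763 CPM against 19.6, 14.4 and 166 CPM (-6.31 ± 1.17, adjusted p = 0.00176, and -4.35 without labelled E18 WT library 3), with labelled E18 WT library 3 far above the other two. Of 11 tested cornified-envelope genes 6 were higher and 2 lower (1 lower without any 1 of the 3 E18 DKO libraries or labelled E18 WT library 3). The E12 DKO libraries were on the labelled E18 WT side for 5 of the 6 stratified keratins called and for 8 of the 13 amnion-type markers called.

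Cell junction genes rose more often than they fell, with 11 of 23 higher and 2 lower, a median of 0.51. F11r, a tight junction adhesion molecule, read 258, 284 and 195 CPM against 80.7, 70.3 and 93 CPM (1.59 ± 0.22, adjusted p = 0.000463), and Cldn4, a sealing claudin, 362, 479.8 and 353 CPM against 158, 116 and 155 CPM (1.48 ± 0.26, adjusted p = 0.00136). The embryonic claudin Cldn6 read 15.9, 46.7 and 87 CPM against 325, 325 and 267 CPM (-2.61 ± 0.56, adjusted p = 0.00371, and -3.28 without E18 DKO library 3). Without labelled E18 WT library 1 or 2 the higher count was 7, and with library size alone it was 5. For Cldn6 E12 DKO read 368, 329.9 and 381 CPM, at or above the labelled E18 WT values, so its lower level in E18 DKO was relative to E12 DKO as well as to the libraries labelled E18 WT.

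Transcription factors of the mesenchyme fell: 10 of 18 were lower and 2 higher (11 and 1 with library size alone), with a median of -1.70. Pitx1, a homeobox factor of limb and extraembryonic mesoderm, read 0.66, 1.15 and 0.327 CPM against 21.9, 57.4 and 56 CPM (-5.94 ± 0.71, adjusted p = 0.000197), and Snai2, a zinc-finger repressor, 8.35, 6.31 and 7.41 CPM against 20.2, 26.4 and 44.6 CPM (-2.05 ± 0.35, adjusted p = 0.0012). The higher count was 1 without E18 DKO library 1 or labelled E18 WT library 2. The E12 DKO libraries were on the labelled E18 WT side for only 4 of these 12 called genes, a smaller share than the 84.9% over all called genes. Tbx4, a T-box factor of allantois and hindlimb, was one of the others: it read 9.57, 9.26 and 9.56 CPM in labelled E18 WT, 0.66, 0.213 and 0.163 CPM in E18 DKO and 0.427, 4.41 and 0.526 CPM in E12 DKO (-4.78 ± 0.94, adjusted p = 0.00241, and -5.60 without E18 DKO library 1). The 3 labelled E18 WT libraries stood above the other 9, with E12 DKO library 2 the nearest of the E12 DKO libraries.

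Markers of fetal cartilage, muscle and nerve were lower in 8 of 14 and higher in 2 (1 without labelled E18 WT library 2), with a median of -3.36. Col9a1, a cartilage collagen, read 0.22, 0.256 and 0.163 CPM against 29.8, 21.4 and 57 CPM (-7.35 ± 1.11, adjusted p = 0.000631), and Col11a2 3.79, 2.09 and 4.19 CPM against 113, 44.9 and 93.8 CPM (-4.65 ± 0.75, adjusted p = 0.000875). Both were also present in E12 DKO (15.5, 17.3 and 29.6 CPM for Col9a1), a stage the labelled E18 WT libraries resembled by their globins. Acan, the large cartilage proteoglycan, went the other way (4.61). Of 11 trophoblast and decidua genes tested 2 were lower, Hand1 (-1.74) and Prl8a2, a decidual prolactin that read 0.165, 0.512 and 0.109 CPM in E18 DKO and 0.603, 0.293 and 71.4 CPM in labelled E18 WT. The Prl8a2 value rested on labelled E18 WT library 3, and its call was lost without that library, E18 DKO library 1 or E18 DKO library 3. Without E18 DKO library 2 the trophoblast list had 5 lower genes, without labelled E18 WT library 1 it had 4, and 1 without E18 DKO library 1 or 3 or labelled E18 WT library 3.

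Vessel and macrophage markers were higher more often than lower. Of 22 endothelial and lymphatic genes 11 were higher and 2 lower, with a median of 0.79 (8 and 2 with library size alone). Eng, a co-receptor for TGF-beta on endothelium, read 300.1, 310.3 and 328 CPM in E18 DKO and 53.5, 56.3 and 61.9 CPM in labelled E18 WT (2.45 ± 0.31, adjusted p = 0.000264), with no overlap, and E12 DKO stood at 59.7, 59.4 and 61 CPM. Plvap, of fenestrated endothelium, read 155, 161 and 211 CPM against 70.8, 81.6 and 68.7 CPM (1.25 ± 0.18, adjusted p = 0.000527). Kdr, the main VEGF receptor, was lower (-0.97), and its call was lost without E18 DKO library 1 or labelled E18 WT library 2 or 3. The lower count was 1 without E18 DKO library 1 or labelled E18 WT library 2 or 3. Of 19 macrophage genes 9 were higher and 4 lower (7 and 5 with library size alone, and 2 lower without E18 DKO library 1 or labelled E18 WT library 3). Csf1r, the receptor for the macrophage growth factor CSF1, read 589, 588 and 804 CPM against 210.2, 171 and 166 CPM (1.85 ± 0.34, adjusted p = 0.00179), and Cd68, a lysosomal protein, 73.5, 38.3 and 130.2 CPM against 12.8, 9.49 and 17.8 CPM (2.59 ± 0.48, adjusted p = 0.00182). Timd4, of long-lived resident macrophages, was lower (-3.55, and -4.90 without E18 DKO library 3). For 12 of the 13 called genes in each list E12 DKO was on the labelled E18 WT side. Of 17 neutrophil granule genes 7 could be tested and of 18 lymphocyte genes 4, the other members lying under the count minimum.

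The fibrillar collagen chains of types I and III, and Col5a1 and Col5a2 of type V, were lower. In all 7 of 16 chains in the list were lower and 2 higher (1 higher without E18 DKO library 1 or 2 or labelled E18 WT library 1 or 2). Col14a1, which decorates fibrils, read 96.6, 109 and 89.8 CPM against 269, 207 and 212 CPM (-1.22 ± 0.18, adjusted p = 0.00055). Col6a1, of beaded filaments, was higher (1.73). The list of folding and crosslinking enzymes had 4 higher and 6 lower of 27 (3 and 11 with library size alone), with most prolyl and lysyl hydroxylases not called. The share called, 37.0%, was below the 42.3% of all genes tested. P3h1, a prolyl 3-hydroxylase, read 33.8, 28.3 and 30.9 CPM against 68.1, 90.4 and 116 CPM (-1.56 ± 0.32, adjusted p = 0.00281). Fkbp10, a prolyl isomerase, read 49.5, 47.2 and 52.2 CPM against 108, 139.9 and 246 CPM (-1.73 ± 0.37, adjusted p = 0.00372). For these genes too E12 DKO resembled labelled E18 WT, on whose side it lay for 8 of 9 collagens and 7 of 10 enzymes.

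Lum (lumican, of the same family as the deleted genes, which also binds fibrils) read 108, 123 and 105 CPM in E18 DKO, 548, 677 and 962 CPM in labelled E18 WT, 405, 434 and 438 CPM in E12 DKO and 490.1, 695 and 833 CPM in E12 WT. All 6 DKO libraries were below all 6 WT libraries for Lum, and the E18 DKO libraries lowest of all; the log2 fold change was -2.70 ± 0.26, adjusted p = 9.19e-05. Fmod (fibromodulin) did not: E12 DKO read 112, 153 and 104 CPM and E12 WT 53.3, 88.3 and 109 CPM, while E18 DKO read 18.5, 10.4 and 14.6 CPM and labelled E18 WT 127, 147 and 227 CPM (-3.53 ± 0.35, adjusted p = 9.96e-05). The doubt about stage applies to both genes.

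Elastic-fibre and basement-membrane genes went both ways. Fbn2, the fibrillin of embryonic microfibrils, read 7.7, 7.55 and 17.5 CPM against 57.1, 107 and 144 CPM (-3.23 ± 0.51, adjusted p = 0.00079), whereas Adamtsl2, which binds fibrillin and latent TGF-beta, read 178, 106 and 135 CPM against 1.51, 1.61 and 2.17 CPM (6.31 ± 1.24, adjusted p = 0.00239). Fras1 and Frem2, partners in one basement-membrane complex of embryonic epithelia, both fell. Fras1 went to 17.9, 13.5 and 8.39 CPM from 116, 132 and 133 CPM (-3.26 ± 0.29, adjusted p = 7.82e-05). Frem2 went to 11.9, 9.47 and 13.5 CPM from 59.6, 67.5 and 58.6 CPM (-2.42 ± 0.22, adjusted p = 7.82e-05). For Fras1, E12 DKO stood at 153, 151 and 152 CPM. Of 27 basement-membrane genes 8 were higher and 6 lower (5 and 9 with library size alone); the higher count was 5, 3, 3 and 4 without E18 DKO library 1, E18 DKO library 2, labelled E18 WT library 1 and labelled E18 WT library 2. Of 19 elastic-fibre genes 5 were higher and 6 lower (3 higher without labelled E18 WT library 1 or 2). Mmp19, a metalloproteinase of skin and vessels, read 95.1, 109.9 and 128 CPM against 2.53, 7.47 and 17.5 CPM (3.6 ± 0.59, adjusted p = 0.000916, and 4.46 without labelled E18 WT library 3). Of 29 tested metalloproteinases and inhibitors 8 were higher and 6 lower (4 and 8 with library size alone). In the fits without 1 library the higher count ran from 4 to 11 and the lower count from 4 to 6. Mmp9 was among the lower, at -3.18 without E18 DKO library 2. The collagen-cutting Mmp2, Mmp13 and Mmp14 were not called. Of 33 matricellular genes and integrins, the receptors that bind cells to matrix, 9 were higher and 5 lower (6 and 5 with library size alone). The share called, 42.4%, was at the 42.3% of all genes tested. In the fits without 1 library the higher count ran from 5 to 10 and the lower count from 1 to 4. The integrin Itga3 read 542, 566 and 393 CPM against 159, 156 and 129 CPM (1.76 ± 0.20, adjusted p = 0.000158). The collagen receptor Ddr1 read 444, 417 and 413 CPM against 164, 156 and 155 CPM (1.42 ± 0.15, adjusted p = 0.000127).

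Genes of cell division fell as a block. All 34 tested mitosis and spindle genes were lower, with a median of -4.34, and remained 34 in each fit that left out 1 library; 32 of 38 DNA replication genes were lower and none higher, with a median of -2.24. Kif11, a spindle motor, read 1.26, 1.75 and 1.91 CPM in E18 DKO, 81.3, 76.3 and 58 CPM in labelled E18 WT and 72.7, 76.6 and 70.2 CPM in E12 DKO (-5.45 ± 0.50, adjusted p = 8.05e-05). E12 WT read 14.9, 68.6 and 45 CPM, with library 1 lowest. Mcm4, of the replicative helicase, read 9.84, 12.5 and 10 CPM against 64, 59.4 and 68.2 CPM (-2.57 ± 0.29, adjusted p = 0.00016), and Uhrf1, which carries DNA methylation through replication, 2.03, 3.11 and 3.65 CPM against 52.4, 55.3 and 56.3 CPM (-4.22 ± 0.49, adjusted p = 0.000171). Transcription factors of the E2F family, which act on such genes, fell too: E2f1 to 5.88, 4.44 and 7.79 CPM from 35.7, 39.3 and 33.8 CPM (-2.59 ± 0.30, adjusted p = 0.00016), and E2f8 to 2.09, 1.71 and 3.1 CPM from 32.9, 35.8 and 34.3 CPM (-3.90 ± 0.51, adjusted p = 0.000321). For all 66 called genes of both lists the E12 DKO libraries were on the labelled E18 WT side, so the doubt about stage applies to the whole block.

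Promoters of these genes are shown because the members moved together. In the 300 bases around the start of each gene (250 before and 50 after, RefSeq on GRCm38.p6), the letters TTTGAA, the core of the cell cycle homology region, were found on either strand in 21 of the 28 mitosis genes with a promoter (75.0%), in 20.2% of 27025 genes and in 14.7% of the 12649 tested genes with a promoter. CCAAT was found in 20 of 28 (71.4%) against 41.1% and 42.1%. TTCCCGC, a core of E2F sites, was found in 14 of 32 replication genes (43.8%) against 5.29% of all and 8.88% of tested genes. Windows run 5′ to 3′ on the gene's strand, hold the bases around the motif and none past the start, and have the motif, or its reverse complement, in capitals; a match describes the letters and is not a measured site.
Kif11 (chr19:37376323-37376381, + strand, TTTGAA on the opposite strand): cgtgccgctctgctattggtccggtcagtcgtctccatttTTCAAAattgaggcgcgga
Top2a (chr11:99024190-99024252, - strand, TTTGAA on the opposite strand): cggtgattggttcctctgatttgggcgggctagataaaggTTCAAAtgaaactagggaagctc
Uhrf1 (chr17:56303249-56303335, + strand, TTCCCGC): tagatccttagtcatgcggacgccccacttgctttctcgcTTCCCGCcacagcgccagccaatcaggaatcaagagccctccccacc
Pola1 (chrX:93632230-93632316, - strand, TTCCCGC on the opposite strand): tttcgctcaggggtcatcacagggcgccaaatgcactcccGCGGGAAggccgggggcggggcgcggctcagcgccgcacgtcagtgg
Top2a, topoisomerase II alpha of dividing cells, and Pola1, the catalytic subunit of DNA polymerase alpha, had log2 fold changes of -5.02 and -3.09.

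Chromatin regulators were mostly lower, 18 of 30 against 6 higher (22 against 3 with library size alone), with a median of -1.20. Suz12, of the Polycomb complex that methylates histone H3, read 32.7, 31.3 and 32.5 CPM against 85.6, 84 and 74.2 CPM (-1.34 ± 0.16, adjusted p = 0.000197), and Smarcc1, of the SWI/SNF remodeller, 26, 35.7 and 22.4 CPM against 93.2, 78 and 95.2 CPM (-1.66 ± 0.20, adjusted p = 0.00019). Tet1, which oxidises methylcytosine, read 0.385, 0.981 and 0.49 CPM against 7.76, 7.74 and 7.35 CPM (-3.59 ± 0.46, adjusted p = 0.000268). The higher members included Chd7 (1.20), Hdac4 (1.17) and Kmt2a (0.98). The lower count stayed 18 in every leave-one-out fit, and E12 DKO was on the labelled E18 WT side for 22 of the 24 called. Lmnb1, lamin B1 of the nuclear envelope, read 7.97, 10.2 and 12.7 CPM against 143, 119 and 153 CPM (-3.74 ± 0.37, adjusted p = 0.000103), beside 142, 109.8 and 131 CPM in E12 DKO. Cytosolic ribosomal protein genes, in contrast, were not called except Rpl3 (-0.96), with 1 of 38 lower (6 with library size alone) and a median of -0.02, while the list of ribosome assembly and nucleolar genes, which also holds Myc and Mycn, had 16 of 25 lower and 1 higher, Myc (the lower count was 9, 8, 7 and 10 without E18 DKO library 3, labelled E18 WT library 1, E18 DKO library 1 and labelled E18 WT library 3). Of 31 splicing factors 14 were lower and 2 higher; the lower count was 9 without E18 DKO library 1, and library size alone gave 24 lower and none higher.

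Cholesterol synthesis genes were lower. Of 26 genes 20 were lower and none higher, with a median of -1.76 and 24 without overlap of the groups. Cyp51, which demethylates lanosterol, read 19.5, 41 and 35.2 CPM in E18 DKO against 226, 178 and 225 CPM in labelled E18 WT and 192, 172 and 248 CPM in E12 DKO (-2.71 ± 0.27, adjusted p = 0.000118). Idi1 (-3.74, and -4.82 without E18 DKO library 2) and Mvd (-2.17), a mevalonate enzyme, were lower as well, while Sqle and Srebf2, the controlling factor, were not called. All 20 lower genes had E12 DKO on the labelled E18 WT side. The sterol response element TCACNCCAC was found in 1 of 18 members with a promoter (5.56%), against 1.44% of all and 1.51% of tested genes.

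Fatty acid genes changed in both directions, with 13 of 31 lower and 7 higher. The lower ones included genes of synthesis and desaturation: Fads2, the delta-6 desaturase, read 2.64, 4.18 and 1.53 CPM against 47.5, 54.4 and 24.3 CPM (-3.91 ± 0.51, adjusted p = 0.000306). Acaca, acetyl-CoA carboxylase, read 9.4, 7.76 and 15.5 CPM against 50.8, 49.6 and 36.4 CPM (-2.07 ± 0.29, adjusted p = 0.000479). Fasn, Acly and Elovl6 had log2 fold changes of -1.83, -1.95 and -1.99. The higher ones included genes of uptake and release: Lpl, lipoprotein lipase, read 2378, 2191 and 1501 CPM against 111, 91.6 and 135 CPM (4.17 ± 0.58, adjusted p = 0.000419), and Pnpla2, adipose triglyceride lipase, 185, 190.3 and 132 CPM against 13.6, 14.6 and 7.55 CPM (3.82 ± 0.54, adjusted p = 0.000454). E12 DKO read 115, 109 and 107 CPM for Lpl, level with the labelled E18 WT libraries whose stage is in doubt. The fatty acid transporter Cd36 (1.49) and Pdk4, which spares glucose (4.75), rose with them.

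Of 30 glycolysis and hypoxia genes 9 were lower and 6 higher (12 and 2 with library size alone). Tpi1, triose phosphate isomerase, read 249, 176 and 151 CPM against 635, 673 and 487 CPM (-1.64 ± 0.31, adjusted p = 0.00193) and Pgk1 42.2, 33.5 and 29.3 CPM against 104, 124 and 83.6 CPM (-1.57 ± 0.29, adjusted p = 0.00161). The higher count was 2 without E18 DKO library 1 or labelled E18 WT library 2 and 3 without labelled E18 WT library 1. Of 30 nuclear genes of the respiratory chain 9 were lower and none higher; with library size alone the lower count was 23. Atp5a1, of ATP synthase, read 307, 386 and 271 CPM against 804, 819.8 and 559 CPM (-1.18 ± 0.24, adjusted p = 0.00298). None of the 7 tested members of the list of mitochondrially encoded transcripts was called. Among them mt-Co1 read 25588, 13074 and 33416 CPM against 14931, 12892 and 16963 CPM (0.69 ± 0.53, adjusted p = 0.316), and E18 DKO library 2 lay inside the labelled E18 WT range. On the whole mitochondrial chromosome 5 of 20 tested genes were called higher and 0 lower (25%, against 42.3% over all genes). The ribosomal mt-Rnr2 was called higher, and lost its call without E18 DKO library 1 or 3 or labelled E18 WT library 1 or 2. E12 DKO lay on the labelled E18 WT side for 11 of 15 called glycolysis genes and 8 of 9 respiratory genes.

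Interferon-stimulated genes were higher. Of 40 tested 31 were higher and none lower, with a median of 1.91 and 33 without overlap; the count was 24 to 30 when 1 library was left out and 25 with library size alone. Ifi35 read 93, 80.1 and 82.6 CPM in E18 DKO, 21.3, 13.8 and 24.7 CPM in labelled E18 WT and 13.8, 11.5 and 14.7 CPM in E12 DKO (2.10 ± 0.32, adjusted p = 0.000674). Irf7, which amplifies the interferon response, read 80.4, 68.6 and 130 CPM against 7.69, 6.97 and 13.7 CPM (3.30 ± 0.48, adjusted p = 0.000543). The signalling factors Stat2 (1.25) and Irf9 (1.55) were higher with their targets, and Cxcl10 and Rsad2 were not called. For 30 of the 31 E12 DKO was on the labelled E18 WT side, so the doubt about stage applies to this list as well. The letters GAAANNGAAA, a core of the interferon-stimulated response element, were found on either strand in 17 of 27 members with a promoter (63.0%), in 3.99% of all genes and in 3.71% of tested genes; Stat2 and Oas1a, a sensor of double-stranded RNA with a log2 fold change of 1.97, are shown with it in capitals, from RefSeq on GRCm38.p6. The capitals in Oas1a mark overlapping matches.
Stat2 (chr10:128270248-128270325, + strand, motif on the opposite strand): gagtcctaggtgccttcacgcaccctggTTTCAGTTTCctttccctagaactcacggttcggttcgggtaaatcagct
Oas1a (chr5:120907526-120907585, - strand): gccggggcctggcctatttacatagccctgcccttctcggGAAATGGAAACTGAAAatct

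Genes of antigen presentation by class I were higher or not called. Of 20 genes 9 were higher and none lower (8 and 2 with library size alone), with a median of 1.09. H2-K1, a class I heavy chain, read 441, 373 and 461 CPM against 79.3, 70 and 104 CPM (2.33 ± 0.34, adjusted p = 0.000531), and its partner B2m 689, 557 and 1399 CPM against 276, 273 and 220.4 CPM (1.78 ± 0.31, adjusted p = 0.00132). Psmb8, of the immunoproteasome, read 14.2, 10.6 and 17.8 CPM against 4.49, 2.99 and 6.16 CPM (1.64 ± 0.35, adjusted p = 0.00372). Mouse strains differ in their class I alleles, and the strain labels differ between the groups; the part of strain in these counts was not tested. E12 DKO, of the same strain label as E18 DKO, read 66.9, 75 and 74.9 CPM for H2-K1, level with labelled E18 WT. Class II genes were scarce: Cd74 read 3.35, 2.6 and 6.86 CPM against 0.377, 0.498 and 1.6 CPM, and the 3 of 5 called genes all lost their calls without E18 DKO library 3 or labelled E18 WT library 1 or 2.

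Acute-phase, complement and cytokine genes were higher more often than lower, at 10 against 0 of 18, 10 against 4 of 27 (9 against 7 with library size alone) and 14 against 2 of 26. Serpina3g, a protease inhibitor of the acute phase, read 31.9, 40.1 and 54.1 CPM in E18 DKO and 0.226, 0.264 and 0.369 CPM in labelled E18 WT (7.18 ± 1.06, adjusted p = 0.000573). Saa1, serum amyloid A, read 11.3, 10.6 and 11.5 CPM against 0.302, 0.234 and 0.533 CPM (4.96 ± 0.51, adjusted p = 0.000123). Lcn2, which sequesters bacterial iron carriers, read 2106, 1435 and 865 CPM against 1.32, 1.17 and 17.1 CPM (7.82 ± 1.16, adjusted p = 0.000582, and 10.20 without labelled E18 WT library 3), with labelled E18 WT library 3 the highest of its group. In the complement list C1ra, of the first complex, read 49.2, 31.9 and 38.8 CPM against 3.69, 4.25 and 3.41 CPM (3.40 ± 0.51, adjusted p = 0.000603), while C9, of the membrane attack complex, fell to 0.989, 3.88 and 4.96 CPM from 56.2, 53.6 and 50.9 CPM (-4.03 ± 0.43, adjusted p = 0.000127). C9 read 53.3, 45.6 and 59.7 CPM in E12 DKO. The interleukin-1 receptor Il1r1 rose to 170.2, 154 and 139 CPM from 11.2, 12.7 and 17.6 CPM (3.48 ± 0.55, adjusted p = 0.000793), and Nfkbia, the inhibitor induced by NF-kappaB, to 120.1, 91.9 and 124 CPM from 30, 21.9 and 27.4 CPM (2.09 ± 0.33, adjusted p = 0.000737). Il33, an alarmin, fell to 2.75, 1.07 and 1.31 CPM from 11.5, 6.39 and 9.85 CPM (-2.44 ± 0.38, adjusted p = 0.000709). The cytokine lower count was 1 without labelled E18 WT library 1. In the Toll-like and inflammasome list 12 of 25 were higher and 3 lower (8 and 4 with library size alone, and 7 higher without labelled E18 WT library 2), and Pycard, the inflammasome adaptor, was among the lower at 1.87, 1.49 and 2.18 CPM against 8.86, 5.86 and 13.7 CPM (-2.36 ± 0.47, adjusted p = 0.00266). E12 DKO was on the labelled E18 WT side for 8 of 10 acute-phase genes, 14 of 14 complement genes and 15 of 16 cytokine genes called.

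Immediate early genes, which respond within minutes to growth signals, stress and tissue handling, were higher in 23 of 29 and lower in none, with a median of 2.05. Junb (2.31), Nr4a1 (1.93), Klf2 (2.56) and Gadd45b (2.05) were among them, and Egr1, Jun and Arc were not called. Socs3, the feedback inhibitor of cytokine receptors, read 235, 126 and 160.2 CPM against 11.3, 11.4 and 13.9 CPM (3.83 ± 0.39, adjusted p = 0.000124). Atf3, of the stress response, read 175, 67.9 and 126 CPM against 19.6, 15.1 and 15.6 CPM (2.87 ± 0.34, adjusted p = 0.000191), with E18 DKO library 1 highest. All 23 had E12 DKO on the labelled E18 WT side. Dissection times are not given in the sources used here, and the part of handling was not tested.

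Heat-shock chaperones changed in both directions. The inducible cytosolic chaperones Hspa1a and Hspa1b, near-identical copies between which reads could not be split with certainty, read 88.4, 43 and 68.2 and 80.4, 46.3 and 58.7 CPM in E18 DKO against 4.49, 5.16 and 8.49 and 5.24, 9.67 and 10.7 CPM in labelled E18 WT, with log2 fold changes of 3.46 ± 0.33, adjusted p = 9.19e-05 and 2.86 ± 0.31, adjusted p = 0.000138. The mitochondrial chaperones Hspd1 and Hspa9 fell, Hspd1 to 57.7, 64.6 and 54.5 CPM from 282, 304 and 284 CPM (-2.30 ± 0.25, adjusted p = 0.000135) and Hspa9 to 99.1, 124 and 84.2 CPM from 415, 415 and 369.7 CPM (-1.96 ± 0.23, adjusted p = 0.000193). In all 8 of 22 were higher and 6 lower (7 and 11 with library size alone). Genes of endoplasmic reticulum stress were higher in 9 of 24 and lower in 5 (7 and 6 with library size alone); Ddit3 (CHOP) read 27.5, 20 and 32.2 CPM against 8.67, 8.53 and 12.9 CPM (1.41 ± 0.23, adjusted p = 0.00085), and Hspa5 and Atf4 were not called. E12 DKO lay on the labelled E18 WT side for all 14 of the called chaperones and 13 of the 14 called stress genes.

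Lysosome and autophagy genes were higher in 15 of 30 and lower in none, with a median of 0.83 (11 and 1 with library size alone). Npc1, which exports cholesterol from lysosomes, read 376, 415 and 444 CPM in E18 DKO, 128, 148 and 111 CPM in labelled E18 WT and 161, 173 and 155 CPM in E12 DKO (1.68 ± 0.20, adjusted p = 0.000201). Sqstm1, an autophagy receptor, read 906, 1034 and 772 CPM against 375, 347 and 259.5 CPM (1.47 ± 0.21, adjusted p = 0.000464), and Map1lc3a, of the autophagosome membrane, 76.6, 69 and 71.4 CPM against 28.7, 27.3 and 30.3 CPM (1.33 ± 0.14, adjusted p = 0.000137). Their values did not overlap between groups. Among 28 antioxidant genes 5 were higher and 9 lower: Gclc, which makes glutathione, read 153, 137 and 174 CPM against 51.6, 47.2 and 47.8 CPM (1.66 ± 0.24, adjusted p = 0.000473). Nqo1 (-3.48) and 4 glutathione transferases of the alpha class were lower, Gsta4 at 1.43, 1.54 and 1.53 CPM against 19.5, 15.8 and 9.81 CPM (-3.33 ± 0.53, adjusted p = 0.000778). The alpha-class genes are similar in sequence, and their counts could be shared. With library size alone 3 were higher and 17 lower.

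Genes of the p53 response were higher in 12 of 28 and lower in 3 (7 and 4 with library size alone). Cdkn1a, the p21 inhibitor of cell division, had a log2 fold change of 2.5, and Phlda3 read 38.8, 35.4 and 50.4 CPM against 19.5, 13.9 and 19.7 CPM (1.23 ± 0.20, adjusted p = 0.000852); Mdm2, Bax and Trp53 itself were not called. In the list of Bcl2 family genes and caspases 12 of 28 were higher and 2 lower (6 and 4 with library size alone), with both death-promoting and protective members. Pmaip1 (Noxa) read 239.7, 286 and 258 CPM against 64.6, 52.3 and 43.5 CPM (2.29 ± 0.48, adjusted p = 0.00328), and the protective Bcl2l1 read 352, 344 and 248 CPM against 87.2, 63 and 73.7 CPM (2.08 ± 0.41, adjusted p = 0.00237). Without labelled E18 WT library 2 the higher count was 7. The lower count, of Casp9 and Apaf1, was 1 without E18 DKO library 2 or labelled E18 WT library 3 and 0 without any 1 of the other 4 libraries. The stage of the labelled WT libraries bears on these as on the rest, with E12 DKO on their side for 13 of 15 p53 genes and 13 of 14 in the Bcl2 list.

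Wnt genes were lower in 17 of 34 and higher in 3, with a median of -1.41; without E18 DKO library 2 the lower count was 11. Rnf43, a feedback inhibitor of Wnt receptors, read 0.11, 0.0853 and 0.0545 CPM against 4.41, 3.63 and 2.42 CPM (-5.31 ± 0.48, adjusted p = 7.82e-05). Its E18 DKO values rest on very few reads, so the size of this fold change is uncertain. Fzd7, a receptor, read 13.5, 10.8 and 14.7 CPM against 34.7, 27.8 and 41.4 CPM (-1.41 ± 0.21, adjusted p = 0.000631). Dkk2, a secreted inhibitor, read 3.41, 3.97 and 8.12 CPM against 23.7, 35.8 and 90.1 CPM (-3.27 ± 0.54, adjusted p = 0.000957, and -2.53 without labelled E18 WT library 3). Lef1, the nuclear effector, was lower (-6.60, and -8.73 without E18 DKO library 2), and the receptor Fzd1 higher (2.15). For 12 of the 20 called genes E12 DKO was on the labelled E18 WT side. In the Hedgehog, Notch and FGF list 9 of 34 were higher and 9 lower (6 and 14 with library size alone). Gli3, its relative Gli1 (-3.78) and the receptor gene Ptch1 (-1.84) fell. Gli3 went to 1.7, 2.56 and 2.23 CPM from 13.5, 13.9 and 23.4 CPM (-2.96 ± 0.34, adjusted p = 0.000162). Notch4, of endothelium, rose to 58.8, 50.1 and 50.3 CPM from 10.7, 12.5 and 11.7 CPM (2.19 ± 0.21, adjusted p = 9.23e-05). Without labelled E18 WT library 2 the higher count was 5. E12 DKO read 15.8, 12.9 and 16.1 CPM for Notch4, near the labelled E18 WT values.

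TGF-beta and BMP genes, of interest because decorin and biglycan bind these ligands, were higher in 7 of 31 and lower in 8, with a median of -0.28; with library size alone 5 were higher and 14 lower. Acvrl1, a type I receptor of endothelium, read 109, 68.8 and 82.9 CPM against 35.2, 35.9 and 37.3 CPM (1.27 ± 0.19, adjusted p = 0.000674), and Id1, a target of BMP signalling, 133, 58 and 106 CPM against 24.3, 13.7 and 18.6 CPM (2.39 ± 0.34, adjusted p = 0.00046). Bambi, a decoy receptor, read 7.31, 6.95 and 8.5 CPM against 21.8, 25.9 and 52.2 CPM (-2.13 ± 0.40, adjusted p = 0.00188), and Bmp5 4.01, 2.13 and 3.38 CPM against 7.91, 8.82 and 20 CPM (-1.95 ± 0.39, adjusted p = 0.00266). Tgfb1 was higher (0.78), Tgfb2 lower (-2.15, and -1.25 without labelled E18 WT library 3), and Tgfb3 and Smad7 were not called. E12 DKO, with the same deletion, read 13.4, 11.3 and 14.2 CPM for Id1 and 18, 19.8 and 18.2 CPM for Bambi, near labelled E18 WT, and lay on that side for 11 of the 15.

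Receptors and ligands of the EGF family were higher in 8 of 12 and lower in none, with a median of 1.24 (7 higher and 1 lower with library size alone, and 5 higher without E18 DKO library 1 or labelled E18 WT library 1 or 2). Egfr, the receptor, read 67.5, 79.2 and 55.1 CPM against 26.8, 22.4 and 36.7 CPM (1.23 ± 0.22, adjusted p = 0.00157). Its relative Erbb2 read 85.6, 108 and 78.6 CPM against 42.9, 44.3 and 48 CPM (1.01 ± 0.20, adjusted p = 0.00254). The feedback inhibitor Errfi1 read 215, 219 and 151 CPM against 44.2, 48.8 and 49.2 CPM (2.04 ± 0.31, adjusted p = 0.00065). The ligand Areg read 9.95, 9.94 and 7.57 CPM against 0.0377, 0.0879 and 0.246 CPM (6.19 ± 1.13, adjusted p = 0.00254, and 7.03 without labelled E18 WT library 3), and 0 in each E12 DKO library. The labelled E18 WT values of Areg rest on very few reads, so the size of this rise is uncertain. The E12 DKO libraries were on the labelled E18 WT side for all 8.

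Among growth factors of the insulin-like family the ligands Igf1 and Igf2 and the receptor gene Insr were not called, but their binding proteins changed in both directions. Igfbp3, the main carrier of IGF in serum, read 1763, 2374 and 1902 CPM in E18 DKO, 94.6, 78 and 119 CPM in labelled E18 WT and 108, 72 and 93.4 CPM in E12 DKO (4.37 ± 0.33, adjusted p = 3.1e-05). Igfbp7 read 424, 302 and 506 CPM against 14.6, 19.6 and 32.7 CPM (4.2 ± 0.65, adjusted p = 0.000693), and Igfbp5 35.5, 23.7 and 38.9 CPM against 308, 159 and 472 CPM (-3.26 ± 0.58, adjusted p = 0.00142). Igf2bp1, an RNA-binding protein of embryonic tissues, fell to 30.7, 33.4 and 35.8 CPM from 113, 117 and 96.1 CPM (-1.71 ± 0.24, adjusted p = 0.000445), along with its partners of early development Lin28b (-3.23) and Hmga1 (-2.14). In all 5 of 20 were higher (3 without labelled E18 WT library 2) and 9 lower. Of 25 imprinted genes 5 were higher and 7 lower (1 and 10 with library size alone). Dlk1, a growth regulator, read 47.9, 41 and 20.2 CPM against 97.8, 131 and 148 CPM (-1.79 ± 0.32, adjusted p = 0.00152). Phlda2, which restrains placental growth, read 7.48, 5.84 and 25.7 CPM against 105, 125 and 56.3 CPM (-2.88 ± 0.64, adjusted p = 0.00474, and -3.84 without E18 DKO library 3). Without labelled E18 WT library 1 or 2 the imprinted list had 1 higher gene, and without E18 DKO library 1 or 3 it had 3. E12 DKO was on the labelled E18 WT side for 12 of 14 insulin-like and 11 of 12 imprinted genes called, so these are also differences between E18 DKO and E12 DKO.

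In the list of glucocorticoid-responsive genes and parturition receptors 10 of 19 were higher and 4 lower, with a median of 1.70. Fkbp5, a chaperone induced by glucocorticoids, read 659, 818 and 382 CPM in E18 DKO, 89.9, 55.5 and 44.1 CPM in labelled E18 WT and 70.7, 62.5 and 75.6 CPM in E12 DKO (3.29 ± 0.66, adjusted p = 0.00268). Tsc22d3 (GILZ) and Sgk1, a kinase, had log2 fold changes of 4.26 and 5.43. Hsd11b2, the enzyme that inactivates glucocorticoids in the placenta and fetus, read 1.98, 2.22 and 2.34 CPM against 187, 150.2 and 149 CPM (-6.21 ± 0.76, adjusted p = 0.000217), with 171, 164 and 183 CPM in E12 DKO and 18, 216 and 195 CPM in E12 WT. The receptor Nr3c1 was not called. Among steroid genes 5 of 14 were higher and 5 lower (4 and 7 with library size alone). The paralogs Hsd3b1 and Hsd3b6, which convert pregnenolone to progesterone, changed in opposite directions: Hsd3b1 read 2370, 4272 and 1856 CPM against 58.3, 47 and 38.8 CPM (5.88 ± 1.24, adjusted p = 0.00356) and Hsd3b6 0.22, 0.299 and 0.109 CPM against 49.4, 53.2 and 44.9 CPM (-7.81 ± 1.12, adjusted p = 0.000505). They are similar in sequence, and how far reads were shared between them is uncertain. In E12 WT library 1 Hsd3b1 was high (1982, 70.4 and 57.6 CPM in E12 WT). The steroid lower count was 3 without E18 DKO library 1 or 2 or labelled E18 WT library 1 or 2. For 13 of 14 and 9 of 10 called genes of these lists E12 DKO was on the labelled E18 WT side.

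Prostaglandin genes, whose products act in labour, were higher in 4 of 25 and lower in 6 (2 and 9 with library size alone). Ptgs1, the constitutive cyclooxygenase, read 37.4, 29.4 and 30.4 CPM against 6.48, 6.74 and 9.19 CPM (2.12 ± 0.32, adjusted p = 0.000635), and Slco2a1, the prostaglandin transporter, 707, 604 and 616 CPM against 167, 116 and 104 CPM (2.32 ± 0.39, adjusted p = 0.00112). Pla2g4a, the phospholipase that releases arachidonic acid, read 13.6, 11.9 and 11.4 CPM against 26.8, 23.8 and 36.7 CPM (-1.24 ± 0.22, adjusted p = 0.00137). The inducible Ptgs2, the synthase Ptges and the breakdown enzyme Hpgd were not called. For Slco2a1 E12 DKO read 130, 141 and 172 CPM, level with the labelled E18 WT libraries of doubtful stage, and 9 of the 10 called genes had that order.

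Transport of retinoids, water and ions changed in named members. Retinoid genes were higher in 9 of 20 and lower in 2 (7 and 3 with library size alone). Dhrs9, a retinol dehydrogenase, read 123, 149 and 124 CPM against 14, 19.9 and 9.23 CPM (3.20 ± 0.40, adjusted p = 0.000249), and Rarb, a retinoic acid receptor, 0.44, 0.682 and 1.09 CPM against 9.61, 12 and 22.5 CPM (-4.31 ± 0.57, adjusted p = 0.000325). Rarb was highest in labelled E18 WT of all groups, with E12 DKO at 3.71, 4.75 and 1.33 CPM. The epithelial sodium channel subunit Scnn1a rose to 299, 253 and 103 CPM from 7.5, 6.59 and 3.94 CPM (5.18 ± 0.76, adjusted p = 0.000554). The water channel Aqp1 rose to 44.2, 50.2 and 38.6 CPM from 11.8, 15.1 and 16.6 CPM (1.61 ± 0.28, adjusted p = 0.00133). Aqp3 and Aqp11, also water channels, were lower (-2.28, and -3.18 without E18 DKO library 3 for Aqp3 and -3.12, and -4.64 without E18 DKO library 3 for Aqp11). Of 26 transporters 5 were higher and 4 lower (5 and 7 with library size alone); the lower count was 2 without labelled E18 WT library 2. All 9 called transporters and 9 of 11 retinoid genes had E12 DKO on the labelled E18 WT side.

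Of 20 circadian clock genes 7 were higher and 2 lower (4 and 4 with library size alone, and 1 lower without any 1 of the 3 E18 DKO libraries). Per2 read 138, 71.8 and 102 CPM against 35, 35.3 and 23.9 CPM (1.73 ± 0.36, adjusted p = 0.00329). Per1 read 132, 107 and 101 CPM against 34.2, 24.4 and 22.8 CPM (2.06 ± 0.48, adjusted p = 0.0059), and Cry2 read 149, 212 and 122 CPM against 69.2, 64.5 and 37.6 CPM (1.5 ± 0.34, adjusted p = 0.00519). The core activators Arntl and Clock, and Dbp and Nr1d1, which cycle strongly, were not called. The time of day of collection is not given in the sources used here, and its part was not tested; E12 DKO was on the labelled E18 WT side for 7 of the 9.

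Transcription factors were lower more often than higher: 112 of 354 against 71 (141 against 51 with library size alone), with a median of -0.32 that library size alone moved to -0.69. Those highest by the test included Cebpb, an inducer of acute-phase genes, at 189.8, 203 and 179 CPM against 45.8, 37.6 and 29 CPM (2.35 ± 0.27, adjusted p = 0.000168). Tead4, a partner of YAP, read 87.6, 88.2 and 77.4 CPM against 31.6, 27.9 and 21.8 CPM (1.64 ± 0.22, adjusted p = 0.000399), and Myc read 83.3, 47.6 and 49.3 CPM against 10.8, 10.3 and 9.73 CPM (2.55 ± 0.37, adjusted p = 0.000555). The lower ones included Sox12 at 23.7, 21.6 and 16.5 CPM against 85.2, 65.6 and 61.9 CPM (-1.78 ± 0.20, adjusted p = 0.000146) and Meis1, a cofactor of Hox proteins, at 6.98, 6.44 and 6.05 CPM against 37.3, 29.8 and 56.9 CPM (-2.67 ± 0.32, adjusted p = 0.000216). Hox genes, which mark position along the body, were lower in 19 of 32 and higher in none. Hoxd9 read 0.11, 0.0853 and 0.163 CPM against 1.21, 1.58 and 1.93 CPM (-3.68 ± 0.52, adjusted p = 0.00045). Hoxa10 was at or near 0 in E18 DKO (0, 0.0853 and 0 CPM) and read 9.35, 5.68 and 8 CPM in labelled E18 WT and 1.12, 3.59 and 1.22 CPM in E12 DKO. E12 DKO was on the labelled E18 WT side for 8 of the 19 and, among all factors called, for 129 of 183. These counts without labelled E18 WT library 3 were 106 lower and 65 higher factors and 15 lower Hox genes.

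**Figure D5:**
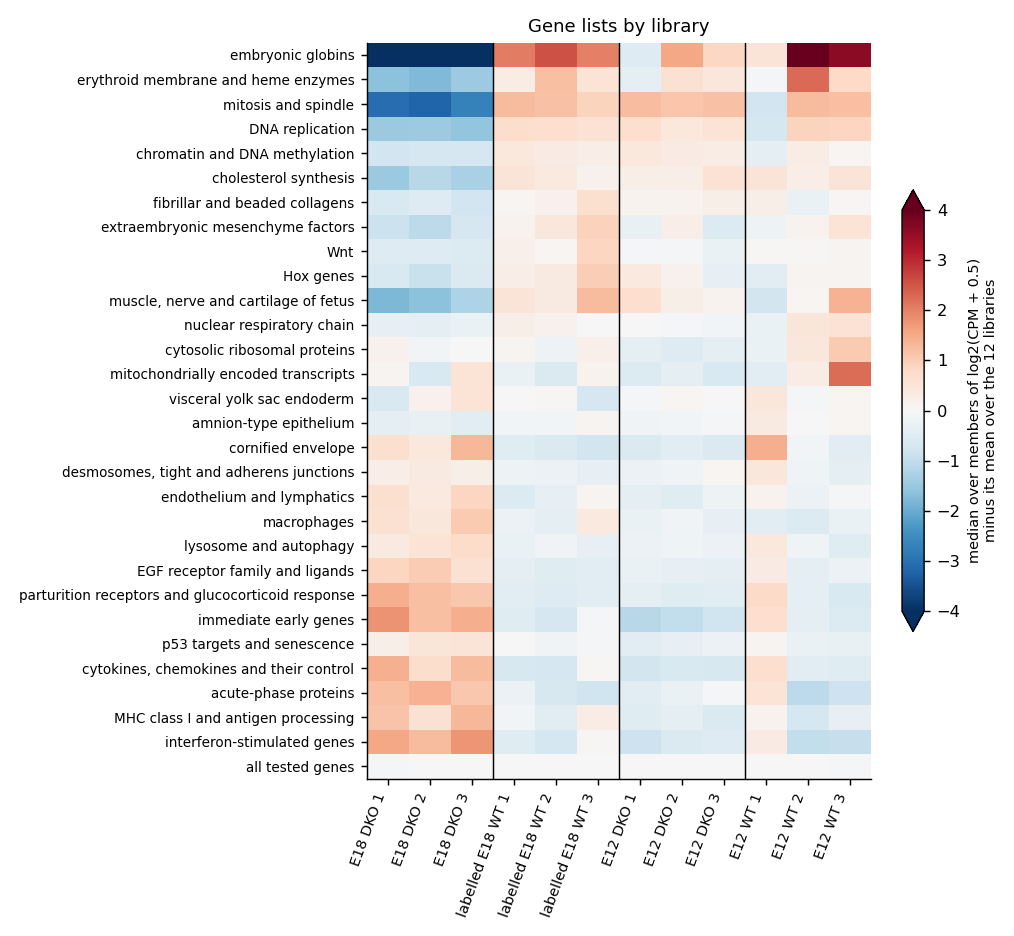
Heat map of 29 lists and all tested genes (vertical) by library (horizontal): the median log2(CPM + 0.5) of the members minus its mean over the 12 libraries, with colours saturating at 4 in either direction. In the mitosis list, for example, the E18 DKO libraries lie at -3.20 to -2.70, E12 WT library 1 at -0.75 and the other 8 libraries above 0.

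Which libraries stood apart was then asked gene by gene, a grouping chosen after values had been seen. The 3 E18 DKO libraries lay wholly above or below the other 9 for 4718 of the called genes (61.4%), among them Atp6v0d2, a subunit of the vacuolar proton pump, at 133, 150.5 and 103 CPM against 0.188, 0.264 and 1.03 CPM. The 3 labelled E18 WT libraries lay apart from the other 9 for 485 genes (6.32%), 255 higher and 230 lower in E18 DKO, of which 40 were pseudogenes. Some of these were low in labelled E18 WT alone: Eno1b, a retrocopy of enolase 1, read 0.0754, 0.117 and 0.123 CPM there, 15.5, 18.1 and 9.53 CPM in E18 DKO, 16.4, 16.6 and 13.1 CPM in E12 DKO and 13.8, 60.8 and 35.1 CPM in E12 WT. Wdfy1, which is known to vary between strains, read 21.7, 18.4 and 25 CPM in labelled E18 WT, 72.1, 62.3 and 88.1 CPM in E18 DKO and 55.8, 50.6 and 71.4 CPM in E12 WT (1.77 ± 0.20, adjusted p = 0.000144). The E12 WT libraries carry the same strain label as those labelled E18 WT and did not share these low values. Whether strain background or tissue made the difference was not tested.

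For 59 of the called genes (0.768%) all 6 DKO libraries lay on one side of all 6 WT libraries, 28 higher and 31 lower in E18 DKO. Bgn, Dcn and Lum were among them. Zdhhc9, an X-linked palmitoyltransferase, read 18.2, 18.1 and 23.5 CPM in E18 DKO, 47.3, 54 and 55 CPM in E12 DKO, 155, 154 and 103 CPM in labelled E18 WT and 186, 152 and 117 CPM in E12 WT (-2.78 ± 0.23, adjusted p = 5.51e-05). Syt12, a synaptotagmin, read 23.4, 25.3 and 16.2 and 4.7, 4.58 and 4.32 CPM in the DKO groups and 3.05, 3.25 and 2.13 and 3.57, 2.75 and 1.94 CPM in the WT groups in the same order (2.94 ± 0.30, adjusted p = 0.000114). This set depends least on the stage of the labelled WT libraries, since both stages share the order, but strain differs with genotype in all 12 libraries. Within 10 Mb of Bgn 18 of 99 tested genes were higher and 23 lower (41.4% called), and within 10 Mb of Dcn 17 of 78 were higher and 26 lower (55.1%), against 42.3% over all genes.

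Y-linked transcripts showed that the libraries of a group did not share one sex: Ddx3y read 60.4, 55.6 and 0.218 CPM in E18 DKO and 45.5, 0.527 and 53.3 CPM in labelled E18 WT, near 0 in E18 DKO library 3 and labelled E18 WT library 2 and high in the other 4. No Y-linked gene was called, and the sexes were as divided in one group as in the other.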

How the data were processed

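RNA of whole fetal membranes was measured by stranded poly(A) RNA-seq. The authors deposited raw counts per gene. For tools, the submitters' processing notes name STAR 2.4.2a, Trimmomatic 0.36, Subread 1.5.0 and featureCounts, and for the genome build GRCm38. Per the file headers, featureCounts used the Ensembl release 86 annotation and reverse-strand counting, without the option that counts multi-mapping reads. Genes with near-identical copies are therefore uncertain. The files number the labelled E18 WT libraries 2 to 4 and the titles 1 to 3. Each library was taken from the file recorded for its sample and is numbered by its title. Counts of 1 E12 DKO library were read from the series table.

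Genes were filtered with filterByExpr, scaled by TMM and tested with edgeR 4.0.16 (R 4.3.3; quasi-likelihood, 1 mean per group over all 12 libraries, Benjamini-Hochberg over 18153 genes). CPM in the text are counts per 1e6 of the library size over the filtered genes, adjusted by its TMM factor. limma 3.58.1 (voom) and DESeq2 1.42.0 served as alternatives, with other filters, scalings, a replicate block and fits without libraries. On simulated data for this comparison (17744 genes), 100 genes were changed 2-fold and 100 genes 4-fold, up or down. Of these, 9.0% of 2-fold and 58.0% of 4-fold changes were called, and 0.0342% of unchanged genes. A far smaller share was changed there than the 42.3% called here. The adjusted p threshold is stricter in such a setting, so these rates do not carry over to the real comparison. Intervals of globin shares are exact binomial ones at 95% and cover counting error only.

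Genes given with full values are Bgn, Dcn, the largest changes by CPM or by fold (at least 10 counts in every library), the transcription factors with the lowest adjusted p, and up to 4 called members per list with the lowest adjusted p. List members given by a log2 fold change alone, and the genes named for which libraries stood apart, were picked after their values were seen. The comparison, lists and tests were chosen with earlier results of these data known. Promoters are from RefSeq; 12649 tested genes had one. Figures were drawn with matplotlib 3.10.9. Some genes that the naming rule selected are not reported here.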

Additional observations from a re-analysis of the deposited data

How the results depend on the processing

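With calls limited to changes beyond 2-fold, 2818 genes were called, 1276 higher and 1542 lower. With library size alone 8397 were called, 2382 higher and 6015 lower, as that scaling moved the median log2 fold change of all genes by -0.36. The other settings kept the total within 1.5 times of 7678: 8551 with DESeq2, 7645 with limma voom, 7260 without a filter, 7199 with a 1 CPM filter, 7678 with DESeq2-type size factors, 7719 with the 6 E18 libraries alone and 5833 to 6924 without 1 library. By alpha-globins the embryonic share was 0.762%, 0.588% and 0.374% in E18 DKO and 29.9%, 45.3% and 22.9% in labelled E18 WT, again without overlap. Among the 269 genes selected by the naming rule, log2 fold changes reversed for 4, none of them called. Reversals among the other tested genes were not counted. Without 1 library in turn, Rpl4 ran from -0.18 to 0.0756 (above 0 without E18 DKO library 3), Rps24 from -0.40 to 0.0248 (without labelled E18 WT library 3), Eif2s3y from -0.60 to 0.92 (below 0 without E18 DKO library 1 or labelled E18 WT library 2) and Ddx3y from -0.35 to 0.81 (below 0 without E18 DKO library 1 or 2 or labelled E18 WT library 2). Rps24 was 0.0253 without E12 WT library 1 and labelled E18 WT library 3; Eif2s3y was -0.14 with library size alone and -0.26 with voom, and Ddx3y -0.0887 with library size alone. The cause of these changes was not tested, apart from that of the scaling.

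The titles give both groups replicate numbers 1 to 3. Deviations of same-numbered libraries from their group means correlated at 0.01, 0.03 and -0.00424, and 0 of 3 correlated best with its own number, so the numbers were not taken to pair the samples; with a replicate block 7489 genes were called.

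Counting depth limits genes under a few CPM: 3 counts, the floor that a count of 0 allows, are a small share of any library here. The simulated 2-fold changes were mostly missed, in a setting with far fewer changed genes than were called here.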
